A study of Mus musculus with 30 samples.

Results

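Utrophin (Utrn), dystrophin (Dmd) and 5 of their partners, dystroglycan (Dag1), α-dystrobrevin (Dtna), β-dystrobrevin (Dtnb), ε-sarcoglycan (Sgce) and sarcospan (Sspn), are the 7 genes described here, of 17477 genes with counts in the hippocampus of adult C57 BL/6J mice. The set was built around Utrn because Utrn was lower in socially isolated (SI) than in group-housed (GH) mice, so the SI difference of Utrn is given below as a description with no test. Its partners were listed for their place in the complex, with earlier results of these data known. Expression was measured by RNA-seq of polyA-selected hippocampal RNA from 30 mice of this inbred strain, each 1 library. The 7 GH and 8 SI females carry animal numbers from 41 to 79 and the 8 GH and 7 SI males numbers from 1 to 39, so that sex and any difference between these ranges of numbers cannot be told apart. SI mice lived alone in a cage from weaning until they were killed as adults, and GH mice shared a cage with a few others. Cage mates are not given in the labels, so GH mice were treated as separate samples.

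Dystrophin and utrophin are large homologous proteins that bind actin under the cell membrane and hold a membrane complex, whose core is dystroglycan, against the extracellular matrix. Dystroglycan carries sugar chains that bind laminins, agrin and neurexins outside the cell, while sarcoglycans and sarcospan sit beside it in the membrane and dystrobrevins and syntrophins bind on the inner side. In the brain, full-length dystrophin lies at GABAergic synapses of pyramidal neurons, a short dystrophin and α-dystrobrevin lie at astrocyte endfeet around vessels, and utrophin has been described at vessels, choroid plexus and meninges. Loss of dystrophin causes Duchenne muscular dystrophy, and utrophin can take over part of its role.

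Dmd gives proteins of very unlike size from separate starts, and a count per gene sums over them. Start windows from RefSeq (GRCm38.p6) were found for 5 of the 7 genes, Utrn, Dmd, Dag1, Dtnb and Sspn; Dtna and Sgce are named only. Both Dmd windows and 1 Sspn window are shown, each as the 250 bases before the start, read 5′ to 3′ on the strand of the gene, because Dmd starts set which dystrophin is made and Sspn is the partner called below. Capitals mark GGGCGG (GC box), CCAAT or TTCCGG (core of ETS sites), searched on both strands.
Dmd, chrX:82948620-82948869, + strand: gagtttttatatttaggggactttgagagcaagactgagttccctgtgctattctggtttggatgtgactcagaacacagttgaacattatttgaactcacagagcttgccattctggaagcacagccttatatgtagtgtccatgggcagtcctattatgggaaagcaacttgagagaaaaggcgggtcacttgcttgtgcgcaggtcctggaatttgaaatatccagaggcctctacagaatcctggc
Dmd, chrX:85048045-85048294, + strand: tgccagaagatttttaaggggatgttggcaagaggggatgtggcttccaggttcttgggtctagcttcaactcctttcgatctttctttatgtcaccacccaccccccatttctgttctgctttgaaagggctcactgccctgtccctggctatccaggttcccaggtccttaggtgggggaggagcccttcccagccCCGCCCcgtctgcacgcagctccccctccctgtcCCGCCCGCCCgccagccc
Sspn, chr6:145933872-145934121, + strand: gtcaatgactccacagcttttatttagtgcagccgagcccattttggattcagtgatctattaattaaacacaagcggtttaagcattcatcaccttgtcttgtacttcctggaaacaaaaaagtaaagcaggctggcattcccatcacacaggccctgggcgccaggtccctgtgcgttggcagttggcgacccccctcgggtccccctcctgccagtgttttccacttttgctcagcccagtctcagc
The former Dmd window ends 33 bases from the start of the 14910-base coding transcript in GENCODE vM1 and holds none of these letters, with a GC content of 45.2% and 2 CpG. The latter ends 118 bases from the start of a 4438-base transcript and holds 3 GC boxes, some of which overlap, with a GC content of 60% and 7 CpG. Of all 32851 RefSeq start windows of this length, 32.7% held a GC box, 33.8% a CCAAT box and 12% the ETS letters, and their median GC content was 52.4%. The Sspn window, at the start of a 4431-base transcript, held none. The Utrn window (chr10:12861736-12861985, − strand) lies at the start of the 12382-base transcript model, but its last 30 bases, tctactcaatactttctcttttcctgttAG, run through a stretch rich in T and C into AG (capitals), the letters found where introns end. The other Sspn window ends alike, in cacaaacaaatacttgatttttctctgcAG, and neither is shown in full, since whether transcription starts there was not tested.

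Reads cover the length of a transcript, so levels of different genes were compared as CPM (counts scaled to the TMM library size) per kilobase. In the 15 GH mice, with the median length of each gene's coding transcripts in GENCODE vM1 (NCBIM37), Dtna was the highest at 63.2 ± 4.33 CPM per kilobase (SD). Dag1 followed at 23.03 ± 2.27 and Dtnb at 21.3 ± 1.23, a pair that did not differ beyond its spread. Sgce was at 15.2 ± 0.957 and Utrn at 13.5 ± 1.69 CPM per kilobase, again within the spread of each other, then Dmd at 9.64 ± 0.961 and Sspn, the lowest, at 4.58 ± 0.922. The order depends on the transcript assumed, which a count per gene does not tell. With the longest transcript, 12382 bases for Utrn and 14910 for Dmd, their levels were 4.30 ± 0.537 and 2.87 ± 0.286 CPM per kilobase, at or below the 4.50 ± 0.906 of Sspn, while Dag1 led at 22.5 ± 2.21.

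**Figure D1:**
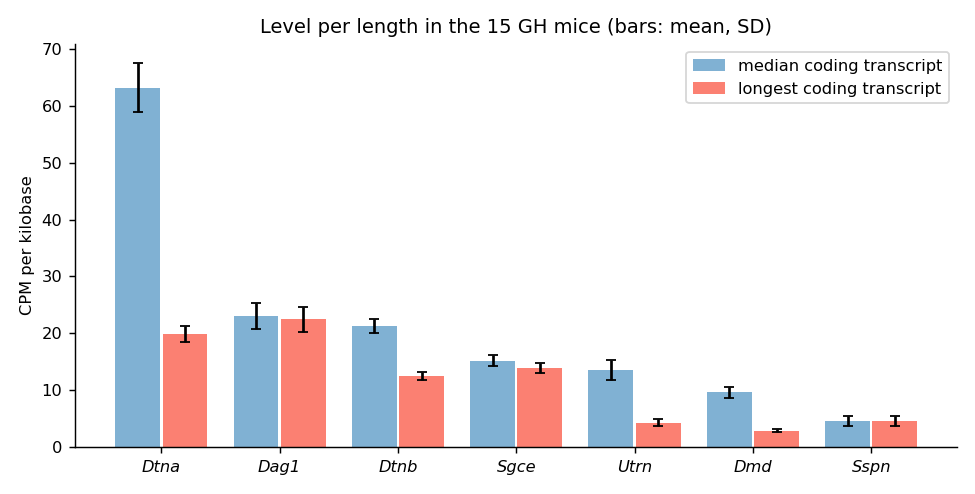
Mean level per length (bars, CPM per kilobase) with SD over the 15 GH mice for each gene, with the median (blue) or the longest (red) coding transcript as its length. Dtna falls from 63.2 to 19.9 and Utrn from 13.5 to 4.30 with the choice, while Dag1 and Sspn hardly move.

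Libraries held about 18809300 to 100845000 counts on genes, and 4 of 4 Y-linked genes tested separated males from females. SI males 25, 33 and 39 stood apart: along the leading principal component of log2 CPM among males (59.1% of the variance) they lay at 61.4 to 99.5 against −35.2 to 1.34 for the other males. Genes whose longest transcript exceeds 5000 bases took 14.1% to 14.8% of counts in these 3 mice and 18.2% to 24.6% in the other 27. The summed markers of pyramidal and granule neurons were at 3639 to 4518 CPM in them and at 6013 CPM or more elsewhere, a sum made up mostly of Camk2a and Slc17a7. The other markers of the list differed among themselves. Over all SI males Neurod6 was at 137 to 182 CPM (118 to 174 CPM in GH males) and Grik4 at 49.6 to 64.9 CPM (47.9 to 63.8 CPM). Prox1 reached lower in SI males, at 33.5 to 88.2 CPM (57.0 to 98.5 CPM in GH males), as did Wfs1, at 78.9 to 178 CPM (94.7 to 183 CPM). The summed microglia markers were at 383 to 448 CPM in these 3 mice against at most 339. Choroid plexus markers were nearly absent in GH males 1, 2 and 3 and SI males 7 and 8 (37.1 to 153 CPM against a median of 2150 CPM over all mice). In whole tissue, fewer cells of a type and less RNA per cell cannot be told apart. Each member in males is therefore given with and without SI males 25, 33 and 39.

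Utrn, ENSMUSG00000019820 (NCBIM37 chr10:12101986-12589163, − strand), was lower in SI mice of both sexes. In females, Utrn ran from 49.8 to 67.4 CPM in GH mice (median 59.5) and from 42.4 to 54.1 CPM in SI mice (median 48.5). All 8 SI females were below the GH median and 4 were below every GH female, while 5 of 7 GH females were above every SI female. Log2FC was −0.21 (SE 0.0497), a level 0.863 times that of GH. GH female 78, at 49.8 CPM, lay within the SI range, and GH female 46 was level with SI female 41, the highest of the SI females (both at 54.1 CPM).

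In males, Utrn ran from 41.9 to 56.2 CPM under GH (median 49.3) and from 21.2 to 47.8 CPM under SI (median 34.3). SI males 25, 33 and 39 were at 22.7, 21.2 and 21.8 CPM, on average 44.7% of the GH mean, and male 38 was between them and the rest at 34.3 CPM. The other SI males, 7, 8 and 27, were at 44.1, 46.5 and 47.8 CPM, inside the GH range though below its median. Log2FC in males was −0.29 (SE 0.0985), and −0.16 (SE 0.0863) without SI males 25, 33 and 39. Leaving out male 38 as well brought it to −0.07 (SE 0.0825). With no surrogate variables (covariates estimated from the counts that stand for unknown batches) it was −0.52, and with each library's trend of counts with transcript length and GC content removed it was −0.15 (SE 0.0921). Without SI male 27 it was −0.45 (SE 0.0891) and without SI male 38 alone −0.16, so that the size of the male difference ranged widely.

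**Figure D2:**
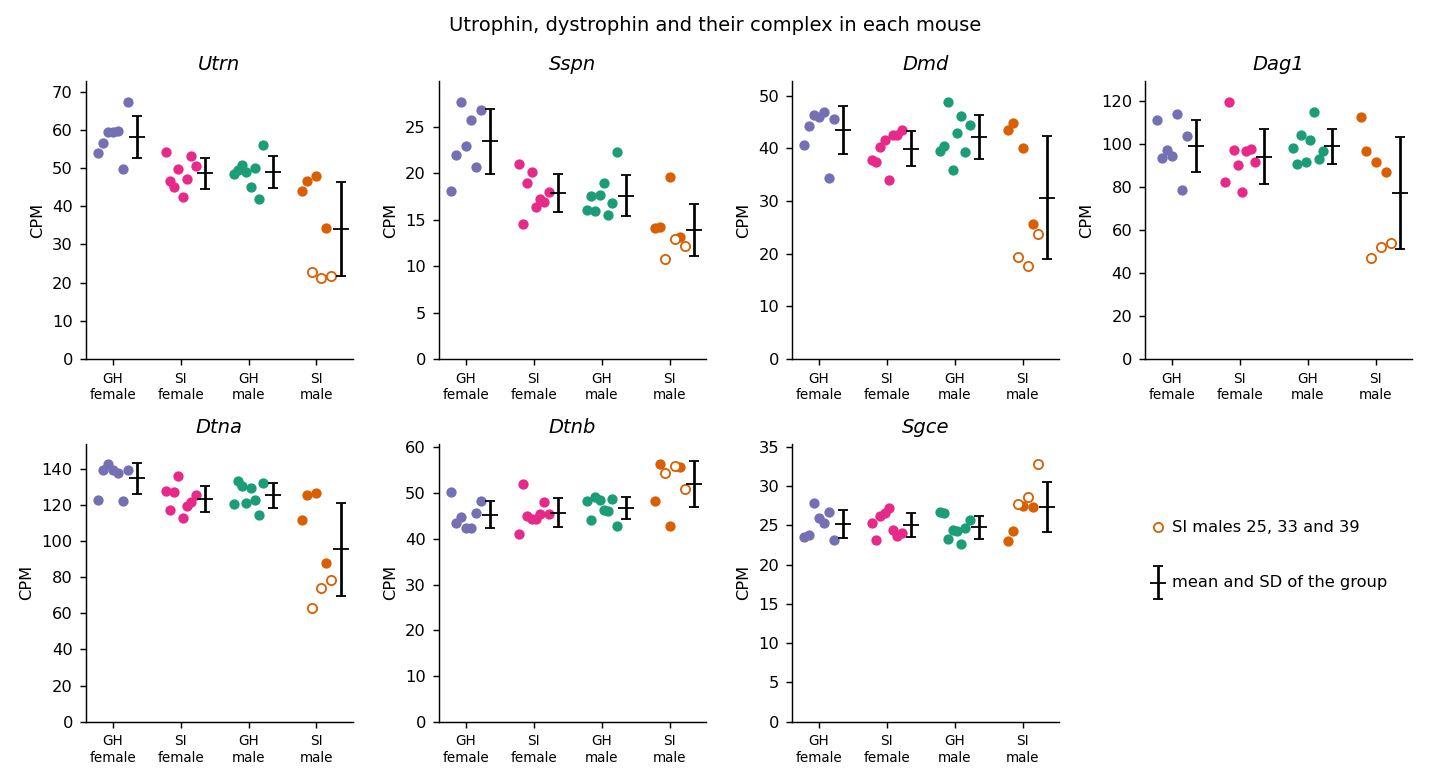
CPM of each gene in every mouse (points, each panel from 0) by group, with group mean and SD at the right of each group. The open points, SI males 25, 33 and 39, lie at 21.2 to 22.7 CPM for Utrn, below all others, but within or above the other groups for Dtnb and Sgce.

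Dystrophin, the protein most like utrophin, did not pass the test in either sex. Dmd (ENSMUSG00000045103, chrX:80194209-82451480, + strand) was at 34.3 to 46.97 CPM in GH females (median 45.6) and 34.1 to 43.5 CPM in SI females (median 40.9). All 8 SI females were below the GH median, but 1 alone was below every GH female, and a single GH female, 78, held the low end of the GH range. Log2FC was −0.08 (SE 0.0396, edgeR adjusted p = 0.246), which did not pass the threshold of 0.05. It was −0.15 without GH female 46 (edgeR adjusted p = 0.0906), and of the 15 fits that each left out 1 female, Dmd was called in 1, without GH female 78 (edgeR adjusted p = 0.0496). In males, Dmd was at 35.8 to 48.9 CPM under GH (median 41.7) and 17.6 to 44.7 CPM under SI (median 25.6), with Log2FC −0.24 (SE 0.0902, edgeR adjusted p = 0.330). SI males 25, 33 and 39 were at 19.3, 17.6 and 23.7 CPM and male 38 at 25.6 CPM, while males 7, 8 and 27 were at 40.0 to 44.7 CPM, within the GH range. Without SI males 25, 33 and 39 Log2FC was −0.11 (SE 0.0606, edgeR adjusted p = 0.742).

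Sspn was the partner that passed the edgeR test in all SI and GH females. Sarcospan is a small protein that spans the membrane several times and binds the sarcoglycans. Sspn (ENSMUSG00000030255, chr6:145880161-145913743, + strand) was at 18.1 to 27.7 CPM in GH females (median 22.96) and 14.5 to 20.9 CPM in SI females (median 17.6). All 8 SI females were below the GH median and 5 were below every GH female, with GH female 46, at 18.1 CPM, the mouse that reached into the SI range most. Log2FC was −0.33 (SE 0.0649, edgeR adjusted p = 0.0121), the Log2FC farthest from 0 among the 7 genes in females. This was 1 call among the 6 partners, where 3.89% of 16026 genes tested were called, 2.93% as lower. The call was lost with no surrogate variables (Log2FC −0.39, edgeR adjusted p = 0.0864), a setting in which edgeR called 0 genes (0%, with 1875 at an unadjusted p under 0.05). It was also lost without SI female 45, SI female 68 or GH female 71 (Log2FC −0.34, −0.28 and −0.26, edgeR adjusted p = 0.0596, 0.124 and 0.0906). By contrast, limma-voom with quality weights and no surrogate variables called 838 of 16026 genes in females, with 2 of the 6 partners called as lower.

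In males, Sspn was at 15.5 to 22.3 CPM under GH (median 17.1) and 10.8 to 19.6 CPM under SI (median 13.1). Of 7 SI males 6 were below every GH male, and SI male 27, at 19.6 CPM, was above 7 of the 8 GH males. Log2FC was −0.22 (SE 0.111, edgeR adjusted p = 0.398), and −0.13 (SE 0.115, edgeR adjusted p = 0.758) without SI males 25, 33 and 39. SI males 7 and 8 were at 14.1 and 14.2 CPM, under the GH range. They did not stand apart along the leading principal component, but choroid plexus markers were nearly absent in both. Of all mice, male 7 also had the lowest summed astrocyte markers (1228 CPM) and male 8 the fewest genes detected (16987). No gene of 15833 passed the test in males by edgeR (0%), where 2060 (13.0%) had an unadjusted p under 0.05 and DESeq2 called 24. Without SI males 25, 33 and 39 edgeR again called 0 of 16241 (0%, with 955 at an unadjusted p under 0.05). The male values rest on single mice as well. Without SI male 38 alone, Log2FC was −0.08 for Sspn, −0.11 for Dtna, −0.06 for Dmd and −0.01 for Dag1, none of them called by edgeR. In the other direction, without SI male 27 edgeR called 15.3% of genes, and Log2FC of Sspn was −0.38 (SE 0.0958, edgeR adjusted p = 0.0156), of Dtna −0.37, of Dmd −0.39 and of Dtnb 0.18, all called. Male 27 was the highest SI male in Sspn, so leaving it out pushes Sspn toward lower, and its p-value there is a description.

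Dtna, whose protein binds dystrophin and utrophin on the inner side of the membrane, ran from 122 to 142 CPM in GH females (median 139) and from 113 to 136 CPM in SI females (median 124). All 8 SI females were below the GH median and 4 were below every GH female. Log2FC was −0.10 (SE 0.0366), and it did not pass the test by edgeR (adjusted p = 0.136). Without GH female 46 it was −0.15 and passed (edgeR adjusted p = 0.0417), as it did by limma-voom with quality weights and no surrogate variables (Log2FC −0.15, limma adjusted p = 0.0426). In males, Dtna was at 114 to 133 CPM under GH (median 126) and 63.1 to 127 CPM under SI (median 88.1), with SI males 25, 33 and 39 at 63.1, 74.3 and 78.4 CPM. Log2FC was −0.24 (SE 0.0800, edgeR adjusted p = 0.312), and −0.15 (SE 0.0775, edgeR adjusted p = 0.742) without these mice. The 4 males lowest in Dtna, SI males 25, 33, 38 and 39, were also the 4 lowest in Utrn, and the mean of males 25, 33 and 39 was 57.4% of the GH mean.

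Dag1 codes for the precursor of both dystroglycan subunits and is the receptor at the centre of the complex. Dag1 (ENSMUSG00000039952, chr9:108108286-108166255, − strand) overlapped between housing groups in females, with 78.5 to 114 CPM under GH (median 97.5) and 77.7 to 120 CPM under SI (median 94.4). Log2FC was −0.09 (SE 0.0403, edgeR adjusted p = 0.214). In males it was at 90.9 to 115 CPM under GH (median 97.6) and 47.2 to 113 CPM under SI (median 87.0). SI males 25, 33 and 39, at 47.2, 52.1 and 54.004 CPM, were the lowest of all males: Log2FC was −0.10 (SE 0.0520, edgeR adjusted p = 0.422) with them and 0.03 (SE 0.0581, edgeR adjusted p = 0.905) without them. Unlike for Utrn, SI male 38 was close to the GH range at 87.0 CPM.

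Dtnb and Sgce did not share the lower levels. Dtnb (ENSMUSG00000071454, chr12:3572381-3781796, + strand) codes for the dystrobrevin of neurons. It was at 42.4 to 50.2 CPM in GH females (median 44.8) and 41.1 to 51.9 CPM in SI females (median 45.2), with Log2FC 0.01 (SE 0.0364, approximate 95% interval −0.06 to 0.08, edgeR adjusted p = 0.934). In males, 5 of 7 SI mice were above every GH mouse, with 42.8 to 49.2 CPM under GH (median 47.3) and 42.8 to 56.3 CPM under SI (median 54.3). Log2FC was 0.11 (SE 0.0676, edgeR adjusted p = 0.470), which did not pass the test, and 0.06 (SE 0.0719) without SI males 25, 33 and 39. Sgce (ENSMUSG00000004631, chr6:4624350-4697204, − strand), an imprinted sarcoglycan whose loss causes myoclonus dystonia, was at 23.2 to 27.8 CPM in GH females (median 25.3) and 23.1 to 27.2 CPM in SI females (median 24.8). Its Log2FC was −0.01 (SE 0.0411, approximate 95% interval −0.09 to 0.07, edgeR adjusted p = 0.917). In males it was at 22.6 to 26.6 CPM under GH (median 24.6) and 23.02 to 32.8 CPM under SI (median 27.5), with Log2FC 0.07 (SE 0.0641, edgeR adjusted p = 0.656), and 0.03 (SE 0.0585) without those 3 mice. In SI males 25, 33 and 39, where Utrn, Dmd, Dag1 and Dtna were at 44.7% to 57.4% of the GH mean, Dtnb was at 115% and Sgce at 120% of it, and Sspn lay between at 68.1%.

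Over the 6 partners, 5 were lower and 1 higher in SI females, with a median Log2FC of −0.09 against 0.01 over all genes tested. In males 4 were lower and 2 higher, with a median of −0.16 against −0.00197, and without SI males 25, 33 and 39 the split was 3 and 3 with a median of −0.04. At an unadjusted p under 0.05, 4 of 6 differed in females (all lower), where 20.2% of all genes did, and 2 of 6 in males (both lower), where 13.0% did. Since the partners were chosen with results known, these counts are descriptions. The difference between the sexes in the SI effect was tested itself: for the 6 partners the interaction ran from −0.16 (Sspn, SE 0.147) to 0.10 (Dtna, SE 0.0811), with edgeR adjusted p from 0.788 to 0.935. The interaction for Utrn was 0.03 (SE 0.111). edgeR called 0 of 16391 genes (0%) for the interaction, with 1226 (7.48%) at an unadjusted p under 0.05, and DESeq2 called 8.

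**Figure D3:**
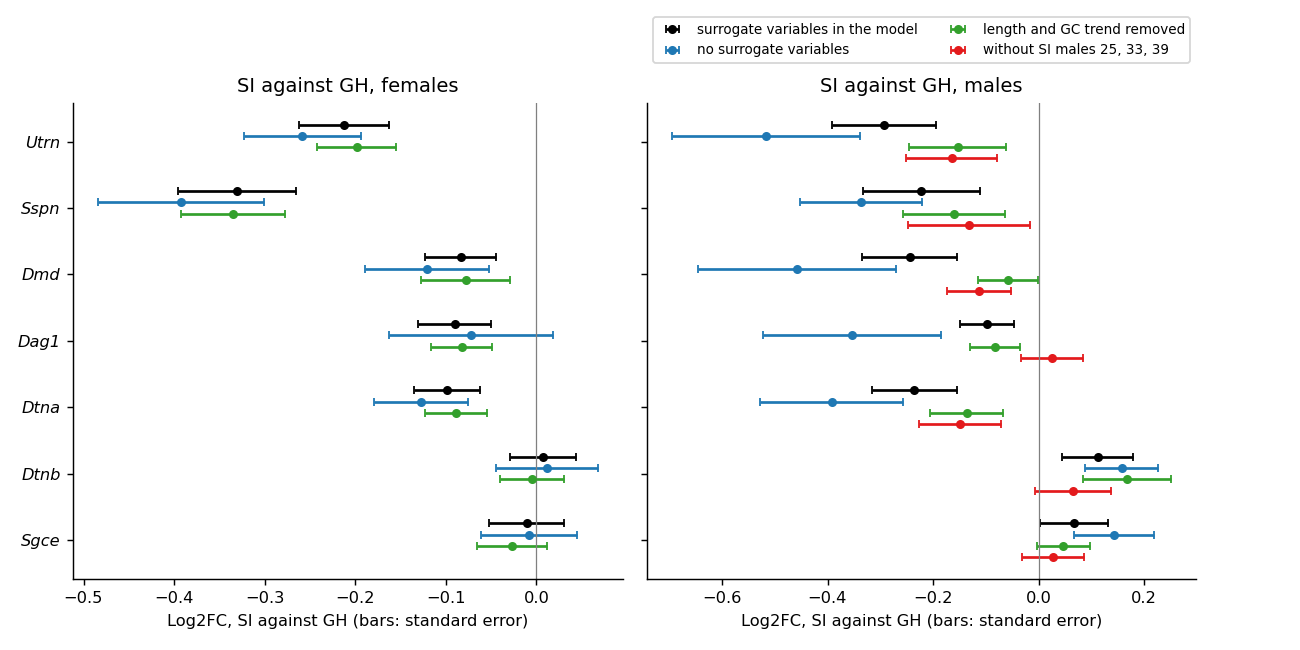
Log2FC of SI against GH with its standard error for each gene in females (left) and males (right), by how the fit was made. In males, estimates for Utrn run from −0.52 with no surrogate variables to −0.15 with the length trend removed, and Dag1 crosses 0 without SI males 25, 33 and 39.

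Among GH mice, Sspn was higher in females than in males. It was at 18.1 to 27.7 CPM in females and 15.5 to 22.3 CPM in males, and 4 of 7 females were above every male. Log2FC of females against males was 0.43 (SE 0.0993, edgeR adjusted p = 0.0172), where 6.31% of 16391 genes were called and 3.31% as higher. For Utrn, 5 of 7 GH females were above every GH male and all 7 were above the GH male median, with Log2FC 0.27 (SE 0.0756). The GH mice of this comparison are also the controls of the SI comparison for which Utrn was picked, so no test is given for Utrn. The same GH females are the controls of the SI call of Sspn, so its sex difference is not independent of that call. Dtna had 5 of 7 females above every male and Log2FC 0.14 (SE 0.0554, edgeR adjusted p = 0.104), which did not pass. The other 4 genes lay between −0.05 (Dtnb) and 0.08 (Dmd), with edgeR adjusted p from 0.330 to 0.746. SI males 25, 33 and 39 enter this fit through the estimates of the spread and of the surrogate variables. Without them Log2FC of Sspn was 0.27 (SE 0.0653, edgeR adjusted p = 0.0463), where 0.901% of genes were called. Without the males that had low choroid plexus markers it was 0.34 (SE 0.0758, edgeR adjusted p = 0.0159). In the 15 GH mice alone with no surrogate variables it was 0.41 (SE 0.0931, edgeR adjusted p = 0.0512), just short of the threshold. In all 30 mice with no surrogate variables it was 0.41 (SE 0.107) and was not called (edgeR adjusted p = 0.159).

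The levels of SI females and GH males lay side by side, untested, with medians of 48.5 and 49.3 CPM for Utrn and 17.6 and 17.1 CPM for Sspn. Markers of several cell types moved in the same comparisons as Sspn and Utrn. All 6 astrocyte markers (Gfap, Aqp4, Slc1a3, Aldh1l1, S100b and Gjb6) were lower in SI than in GH females, with a median Log2FC of −0.22 and 3 called (S100b −0.26, Slc1a3 −0.24 and Aldh1l1 −0.27), where 3.89% of all genes were called. With edgeR and no surrogate variables none of these was called. Their summed level was 1619 to 2096 CPM in GH females, 1268 to 1873 CPM in SI females and 1354 to 1817 CPM in GH males. All 6 were higher in GH females than in GH males, with a median Log2FC of 0.28 and 3 called, where 6.31% of all genes were. The GH females are the same mice in both comparisons, which are therefore not independent. Oligodendrocyte markers were on the lower side in SI females (6 of 6, median −0.09, none called) and on the higher side in GH females against GH males (6 of 6, median 0.09, with Mobp called). Choroid plexus markers were on the higher side in SI females (6 of 6, median 0.27, none called), as were 5 of 6 endothelial markers (median 0.11, with Flt1 called). Microglia markers were on the lower side there (6 of 6, median −0.08, none called). So were most fibroblast and meninges markers (5 of 6, median −0.13, none called), while mural markers were split (3 lower, 3 higher, none called). Of pyramidal and granule neuron markers 2 were lower and 4 higher, with Camk2a called as lower (Log2FC −0.24, edgeR adjusted p = 0.0197). In GH females against GH males these neuron markers were on the lower side (5 of 6, 2 called), as were interneuron markers (5 of 6, 1 called). Endothelial and mural markers were lower there too (6 of 6 each, none called), and fibroblast and meninges markers were split (3 lower, 3 higher). The part of these cell types in the levels of Sspn and Utrn was not tested. In SI males 25, 33 and 39 the astrocyte markers summed to 1576 to 1621 CPM. Single astrocyte markers went opposite ways among SI males, with S100b at up to 399 CPM (at most 133 in GH males) and Aqp4 down to 75.1 CPM (at least 109.9 in GH males).

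Other subunits of the complex were described from a list of 13, of which 11 were tested in females and males. Sntb1, a syntrophin, which is an adaptor that binds dystrobrevin and dystrophin, was the 1 called in females (3.89% over all genes), at 5.78 to 14.8 CPM under GH (median 9.09) and 5.22 to 10.003 CPM under SI (median 8.07). Its Log2FC was −0.29 (SE 0.0751, edgeR adjusted p = 0.0409), although most of the SI range lay inside the GH range. The median Log2FC of the list was −0.01 in females, with 6 lower and 5 higher, and −0.13 in males, with 9 lower and 2 higher and none called. The smallest p in males was that of another syntrophin, Sntb2, at 16.9 to 26.9 CPM under GH and 9.21 to 21.9 CPM under SI (Log2FC −0.28, SE 0.0952, edgeR adjusted p = 0.312).

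Outside the cell, none of 13 dystroglycan ligands (laminin chains, agrin, perlecan, neurexins and pikachurin) was called in the main edgeR fit of either sex. Other fits of the females called some, all lower: 2 by DESeq2 and 2 by edgeR with the length and GC trend removed. edgeR called 1 with DESeq2's size factors and 1 with no filter, and limma-voom with quality weights called 1. The smallest edgeR p in females was that of Lama2, the laminin chain lost in a congenital muscular dystrophy, at 12.1 to 18.4 CPM under GH and 8.92 to 14.4 CPM under SI (Log2FC −0.27, SE 0.0737, edgeR adjusted p = 0.0510), just short of the threshold. In males it was Egflam (pikachurin), at 2.61 to 3.75 CPM under GH and 2.12 to 4.43 CPM under SI (Log2FC 0.27, SE 0.118, edgeR adjusted p = 0.367). For the ligands the median Log2FC was −0.05 among female mice and 0.07 among male mice, and the male sign turned with no surrogate variables (−0.16, 10 of 13 lower) and with the position digit of the labels as a factor (−0.18). Of 17 genes that build the sugar chains of dystroglycan, none was called either, with medians of 0.05 in females and 0.03 in males. B3galnt2, a sugar transferase, had the smallest p in females and was on the higher side under SI (Log2FC 0.21, SE 0.0649, edgeR adjusted p = 0.0829), with 8.47 to 10.8 CPM under GH and 9.65 to 12.01 CPM under SI. In males the smallest p was that of Dpm2, part of the enzyme that makes the mannose donor (Log2FC 0.20, SE 0.0694, edgeR adjusted p = 0.319).

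Both sites of the complex in the brain were looked at through their neighbours. Of 6 genes of astrocyte endfeet, 2 of which are also among the astrocyte markers above, all 6 were lower in SI females (median Log2FC −0.15) and 2 were called, where 3.89% of all genes were. Mlc1, a membrane protein of astrocyte junctions, was at 263 to 335 CPM under GH and 181 to 288 CPM under SI (Log2FC −0.27, SE 0.0464, edgeR adjusted p = 0.00703). Hepacam, its partner GlialCAM, was at 133 to 149 CPM under GH and 112 to 136 CPM under SI (Log2FC −0.18, SE 0.0379, edgeR adjusted p = 0.0140), with little overlap. In males all 6 were on the lower side as well, with a median of −0.16 and none called, and the smallest p was that of the gap junction gene Gja1 (Log2FC −0.21, SE 0.0988, edgeR adjusted p = 0.384).

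At the GABAergic postsynapse, where dystrophin lies with neuroligin and gephyrin, 1 of 11 genes was called in females, where 3.89% of all genes were, and none in males. Iqsec3, an exchange factor that binds gephyrin, was at 322 to 441 CPM in GH females (median 371) and 252 to 347 CPM in SI females (median 281), with Log2FC −0.29 (SE 0.0492, edgeR adjusted p = 0.00703). It had the smallest p of the list in males too, at 283 to 370 CPM under GH and 82.7 to 374 CPM under SI (Log2FC −0.38, SE 0.118, edgeR adjusted p = 0.3003). Of the list, 7 of 11 genes were on the higher side in females, at a median of 0.07 (Log2FC). The male median was 0.04, and its sign turned with no surrogate variables (−0.11, 8 of 11 lower) and with the position digit as a factor (−0.15, 10 of 11 lower). Without SI males 25, 33 and 39 none of the genes of these 5 lists was called in males either, and the medians there were −0.09 for other subunits, 0.17 for ligands, 0.0054 for the sugar chain genes, −0.14 for endfoot genes and 0.04 for postsynaptic genes. With edgeR and no surrogate variables none of the 4 list genes called in females (Sntb1, Mlc1, Hepacam and Iqsec3) was called.

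**Figure D4:**
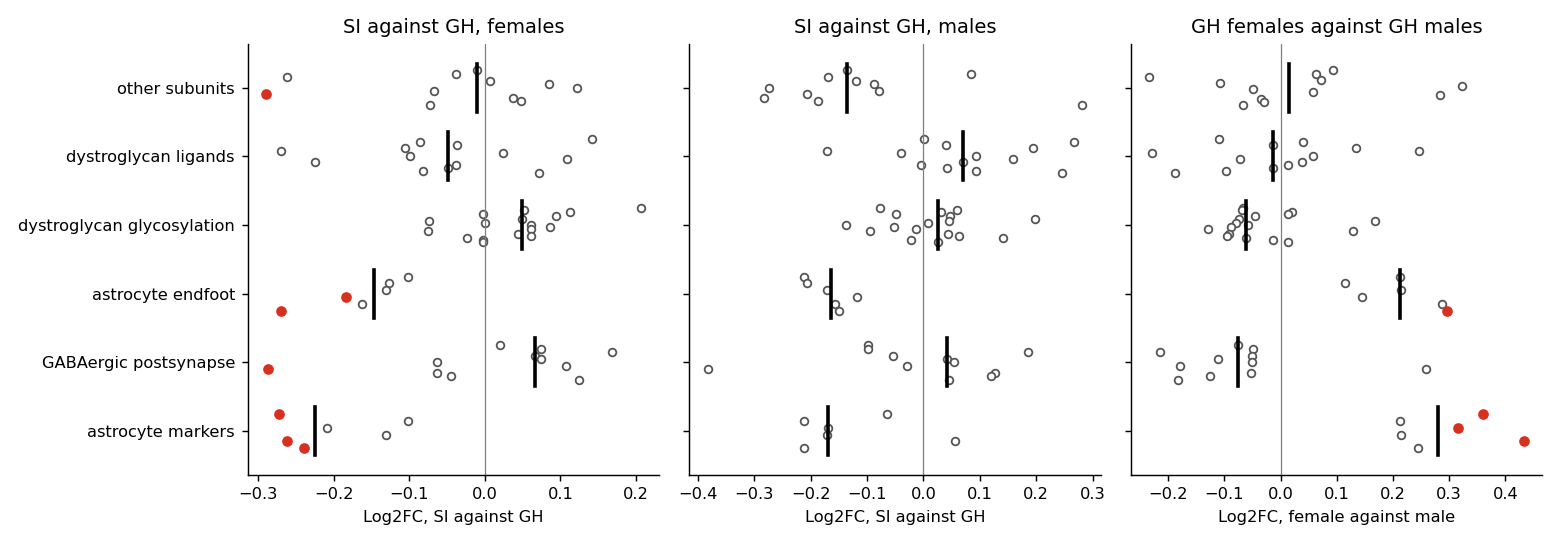
Log2FC of each gene (points) of 5 lists around the complex and of the astrocyte markers, for SI against GH in females and males and for GH females against GH males. Filled points passed the edgeR test and black bars are medians; endfoot genes and astrocyte markers lie below 0 in SI females (medians −0.15 and −0.22) and above 0 in GH females against GH males (0.21 and 0.28).

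Likeness to Utrn was measured as Pearson r of log2 CPM after the mean of each group was taken off, over 30 mice and again over 27 without SI males 25, 33 and 39. These mice lie far from the rest, so the values over 30 rest partly on them. Among partners, r with Utrn was 0.90 for Dtna (0.77 over 27 mice), 0.89 for Dmd (0.71), 0.80 for Dag1 (0.27), 0.60 for Sspn (0.58), −0.35 for Dtnb (−0.35) and −0.54 for Sgce (−0.26), where the median gene was at 0.01. Dtna therefore ranked 51 and Dmd 154 of 16390 genes over the 27 mice, and Dag1 ranked 3930. Among the genes most like Utrn over 30 mice were Sox6 (0.96, and 0.88 over 27), a transcription factor, Aldh5a1 (0.95 and 0.84), which breaks down a product of GABA, 9430020K01Rik (0.95 and 0.83) and Rims1 (0.95 and 0.83), a protein of the presynaptic active zone. The least like were ENSMUSG00000093989 (−0.95 and −0.83), Pfn1 (−0.94 and −0.75), the actin-binding profilin, Lyar (−0.93 and −0.79), Tsfm (−0.93 and −0.76) and Phax (−0.93 and −0.82).

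The share of counts on genes with long transcripts moved with some members more than with others. Its r with the gene, group means removed, was 0.95 for Dag1 (0.88 over 27 mice), 0.90 for Dmd (0.75), 0.83 for Utrn (0.46), 0.77 for Dtna (0.37), 0.28 for Sspn (−0.09), −0.06 for Dtnb (0.21) and −0.75 for Sgce (−0.75), whose transcripts are the shortest of the 7. Dag1 and Sspn, with longest transcripts of 4415 and 4512 bases, were far apart in r. Utrn, Dmd and Dtna, whose longest transcripts exceed 5000 bases, are themselves counted in the share. The part of transcript length in these values was not tested. With the summed markers of pyramidal and granule neurons, r of Utrn was 0.86 (0.56 over 27 mice), with microglia −0.70 (−0.03), with interneurons −0.59 (−0.36), with endothelial cells −0.53 (−0.28), with choroid plexus −0.52 (−0.27), with oligodendrocytes −0.46 (0.14) and with astrocytes −0.04 (0.40). With mural cells r was 0.29 (−0.05) and with fibroblasts and meninges −0.21 (−0.05). The part of these measures in the levels of Utrn was not tested. Removing each library's trend with transcript length and GC content left Log2FC of Utrn in females at −0.20 (SE 0.0437) and of Sspn at −0.33 (SE 0.0572, edgeR adjusted p = 0.00516), close to the values above, and took Dmd in males from −0.24 to −0.06 (SE 0.0569).

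**Figure D5:**
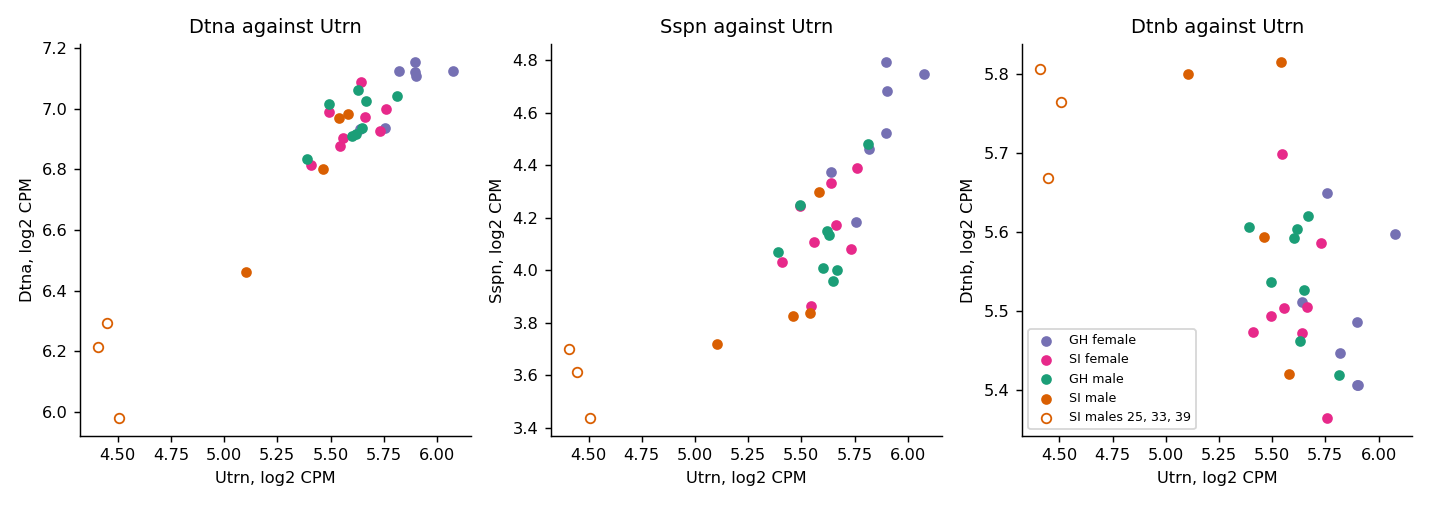
Log2 CPM of Dtna, Sspn and Dtnb against Utrn in the 30 mice, coloured by group, with SI males 25, 33 and 39 as open points. Points are shown with group means left in. With group means removed, r with Utrn was 0.90 for Dtna, 0.60 for Sspn and −0.35 for Dtnb. Over the 27 mice without SI males 25, 33 and 39, r was 0.77, 0.58 and −0.35.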

How the data were processed

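Hippocampal RNA of 30 mice was sequenced in the study as polyA-selected libraries. Reads were trimmed (Trimmomatic 0.39) and quantified against transcripts (Salmon 1.8.0) by the authors (GRCm39, mm39 per the submitters' processing notes), who deposited 1 table of whole-number counts per Ensembl gene and mouse, without normalization. Each of its 17477 genes has a total of at least 100 counts. Salmon assigns reads shared by transcripts of like sequence by estimation, and the counts sum all transcripts of a gene. Symbols were matched for 16439 genes (94.1%), and coordinates, transcript lengths (16439 genes) and GC content (15964 genes, 91.3%) came from GENCODE vM1 on NCBIM37, through the gene IDs and not through the authors' build.

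After filterByExpr (at least 10 counts, total of 15) genes were tested with edgeR 4.0.16 (R 4.3.3, TMM, quasi-likelihood) within each sex, with surrogate variables from svaseq of sva 3.50.0 (20 permutations, seed 1; 3 in females, 2 in males). The interaction and the GH sex difference came from 1 fit of all 30 mice with 4 surrogate variables. p-values were adjusted over all genes tested (Benjamini-Hochberg, threshold 0.05). log2 CPM used a prior count of 2. Alternatives were no surrogate variables, DESeq2 1.42.0, its size factors, no filter, limma-voom 3.58.1 with quality weights, lowess removal (span 0.3) of the trend with transcript length and GC content in every library, and leaving out each mouse. Added after seeing the data were the position digit in the labels as a factor, leaving out SI male 38 as well, leaving out SI males 25, 33 and 39 from the sex difference and from the likeness to Utrn, leaving out males with low choroid plexus markers, and DESeq2 for the interaction. The steps were tested on simulated data.

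The members and gene lists were chosen with earlier results of these data known. The genes named are the 7 members, of each other list every gene called in either sex and the gene with the smallest p in each sex, the astrocyte markers, and the 5 genes most and the 5 least like Utrn, of which 1 is not reported here. Precision is set by the spread between mice, since every pair of replicates differed by more than sampling noise (chi-square per degree of freedom of at least 9.29).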

Additional observations from a re-analysis of the deposited data

Results flagged for a closer look

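Sspn in SI male 27, at 19.6 CPM, lay far above the other SI males, the nearest of which was at 14.2 CPM, a gap of 0.609 of the group's whole range. It was the 1 sample set apart among 28 combinations of gene and group tested, where chance sets apart about 1 in 20. Without this mouse Log2FC of Sspn in males was −0.38 (edgeR adjusted p = 0.0156). The mouse was picked here by its own high Sspn, which its removal takes from the SI group, so that p-value is no test of Sspn. Over all genes, 2414 (15.3%) were called without the mouse where none were with it. Dmd (−0.39, edgeR adjusted p = 0.0107), Dtna (−0.37, edgeR adjusted p = 0.00457) and Dtnb (0.18, edgeR adjusted p = 0.0461) were called there as well.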

How the results depend on the processing

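Without surrogate variables edgeR called 0 genes in females (1875 at an unadjusted p under 0.05) and 16 between GH females and GH males. limma-voom with quality weights, also without surrogate variables, called 838 genes in females and 0 in males. DESeq2 called 1229 genes in females, 24 in males, 1902 between GH females and GH males and 8 for the interaction. Removal of the length and GC trend gave 944 calls in females, and the position digit as a factor gave 0 (1915 at an unadjusted p under 0.05). For the GH sex difference, 647 genes were called with no filter, 64 in the 15 GH mice alone, 150 without SI males 25, 33 and 39 and 668 without the males with low choroid plexus markers. Leaving out each mouse in turn gave 88 to 1373 calls in females, fewest without SI female 68 and most without GH female 46, and 0 to 2414 in males, where all calls came without SI male 27. With the longest transcript, levels per kilobase were 4.30 for Utrn, 2.87 for Dmd, 19.9 for Dtna, 12.5 for Dtnb and 13.8 for Sgce.

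Utrn kept its lower level under SI in every fit of each sex, from −0.27 to −0.18 in females and from −0.45 to −0.16 in males when each mouse was left out. Signs turned for members near 0. Dtnb in females was −0.00485 with the trend removed and ran from −0.0238 to 0.0404 when each mouse was left out, and Sgce in females from −0.0296 to 0.00944. In males, Dag1 was 0.0254 without SI males 25, 33 and 39, and Dtnb −0.0189 and Sspn 0.0301 without male 38 as well. In the interaction, Dag1 was 0.28 without surrogate variables, and Utrn −0.11, Dmd −0.0135 and Dtna −0.0201 without SI males 25, 33 and 39. In the sex difference, Dag1 was 7.9e-05 without surrogate variables, 0.00038 in GH mice alone and 0.00473 without SI males 25, 33 and 39, and Dtnb was 0.00205 there. The cause was not tested for any of these. No paired analysis was possible because animal numbers are not shared between groups.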
